A study of Mus musculus with 35 samples.

Results

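The enzymes described here carry carbon and nitrogen between glutamine, glutamate, proline, ornithine, citrulline and arginine in the small intestine. The set holds 9 genes, chosen by gene symbol: Prodh, Glud1, Oat, Aldh18a1, Cps1, Otc, Ass1, Asl and Arg2. They are 9 of the 18193 genes named on the Affymetrix whole-genome mouse array and have 17 probesets, a probeset being a set of short probes whose signals are combined into 1 value. Of these, 15 probesets of 8 genes had a mean above 32 on the linear scale (5 on the log2 scale) in at least 1 group, and these are called expressed here. Ass1, which encodes argininosuccinate synthase, was the exception: its log2 values on its own probeset lay between 2.49 and 3.24 in all 35 arrays, and it entered no test.

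Each array was hybridised with RNA from 1 whole small intestine, taken from a male mouse of 4 months at 6 h after an oral gavage of 400 µl. Pure-bred wild-type mice (129S1/SvImJ) and PPARα-null mice (129S4/SvJae), which lack the nuclear receptor PPARα in every tissue, received the synthetic agonist WY14643 (n = 4 and 4), tridocosahexaenoin (docosahexaenoic acid, DHA, n = 5 and 4), trieicosapentaenoin (eicosapentaenoic acid, EPA, n = 5 and 5) or triolein (oleic acid, OA, n = 4 and 4). All animals had eaten a purified diet with olive oil as its fat, and untreated mice were not analysed here. WY14643 was given as a suspension in carboxymethyl cellulose and the fatty acids as pure triacylglycerols, so that the compound and its carrier cannot be told apart, and the genotypes also differ in substrain. In whole intestine, fewer cells of a type and less RNA per cell cannot be told apart either.

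Enterocytes burn glutamine as a main fuel and send much of its nitrogen to the kidney as citrulline, from which the body makes arginine. Glutamate and proline meet at pyrroline-5-carboxylate, an intermediate that ornithine aminotransferase turns into ornithine. Carbamoyl phosphate and ornithine are then joined to citrulline inside the mitochondrion, and arginase returns arginine to ornithine. PPARα is a transcription factor that binds fatty acids and switches on genes of fatty acid oxidation, and in liver it is also known to lower the expression of several enzymes of amino acid catabolism.

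Cyp4a10, a PPARα target, served to check the genotype labels. Its log2 level was 8.15 to 12.75 in 17 wild-type arrays and 1.36 to 2.50 in 15 PPARα-null arrays, but 3 arrays went against their label: replicate 5 of each genotype after EPA and replicate 1 of the PPARα-null mice after OA. Member calls that use EPA in either genotype or OA in PPARα-null mice are therefore also given without these 3 arrays. Among 8 expressed textbook PPARα targets, 6 passed the test with the higher level in wild-type mice after WY14643 and 5 did so after DHA. The shares of all genes called higher were 4.13% and 4.49%. After EPA and OA none passed with all arrays (0% and 0.336% of all genes), and 7 and 4 passed without the 3 arrays (1.54% and 1.33%). The 3 arrays were picked by Cyp4a10, itself a PPARα target, so the last 2 counts are no separate check of the labels.

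The stretches of genome just upstream of the annotated start are shown for 4 members. Prodh, Glud1 and Oat each passed the test between genotypes after DHA, while Otc passed it after no agonist. The reference sequences (RefSeq, GRCm38.p6) are written 5′ to 3′ on the gene's strand, without bases inside the annotated gene, and capitals mark each GGGCGG or its reverse complement CCGCCC, the core of the GC box. They lie at chr16:18089284-18089440 (minus strand, Prodh), chr14:34310477-34310726 (plus strand, Glud1), chr7:132576399-132576648 (minus strand, Oat) and chrX:10252055-10252229 (plus strand, Otc).
Prodh: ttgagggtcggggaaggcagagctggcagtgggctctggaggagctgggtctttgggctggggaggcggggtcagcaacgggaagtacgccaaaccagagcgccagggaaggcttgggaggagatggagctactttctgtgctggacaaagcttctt
Glud1: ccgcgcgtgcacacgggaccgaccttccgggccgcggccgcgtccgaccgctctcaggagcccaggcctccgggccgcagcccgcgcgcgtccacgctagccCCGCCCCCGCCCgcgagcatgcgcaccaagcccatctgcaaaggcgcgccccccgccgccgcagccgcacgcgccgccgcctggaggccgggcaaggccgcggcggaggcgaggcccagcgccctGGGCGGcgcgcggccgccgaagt
Oat: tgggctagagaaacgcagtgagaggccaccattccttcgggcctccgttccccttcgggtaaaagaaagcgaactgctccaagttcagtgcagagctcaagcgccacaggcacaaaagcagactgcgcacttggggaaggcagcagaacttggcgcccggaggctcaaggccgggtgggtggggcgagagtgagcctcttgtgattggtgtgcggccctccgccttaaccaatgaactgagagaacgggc
Otc: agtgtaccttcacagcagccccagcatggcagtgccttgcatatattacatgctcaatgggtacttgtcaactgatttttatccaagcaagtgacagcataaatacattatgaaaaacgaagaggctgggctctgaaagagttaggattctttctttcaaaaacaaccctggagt
The letters were searched on both strands in the 250 bases before the start site of the RefSeq table, of which 93 bases of Prodh and 75 of Otc lie inside the annotated gene and are not printed. In these windows Glud1 held 3 GC box cores, 2 of which adjoin, and Prodh, Oat and Otc held none, while 32.7% of 32851 such windows held at least 1. As printed, the Glud1 stretch of 250 bases was 82.0% G or C with 46 CG pairs, and that of Oat, of the same length, 60.0% with 14. The shorter stretches were 61.1% G or C with 5 CG pairs over 157 bases for Prodh and 41.7% with 1 over 175 bases for Otc. The run AGGTCA or its reverse complement TGACCT, the core to which nuclear receptors such as PPARα bind in pairs, was in none of the 6 member windows held by the table, which also covers Aldh18a1 and Ass1, and was in 14.0% of all windows. These matches describe letters in a window and not binding.

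**Figure D1:**
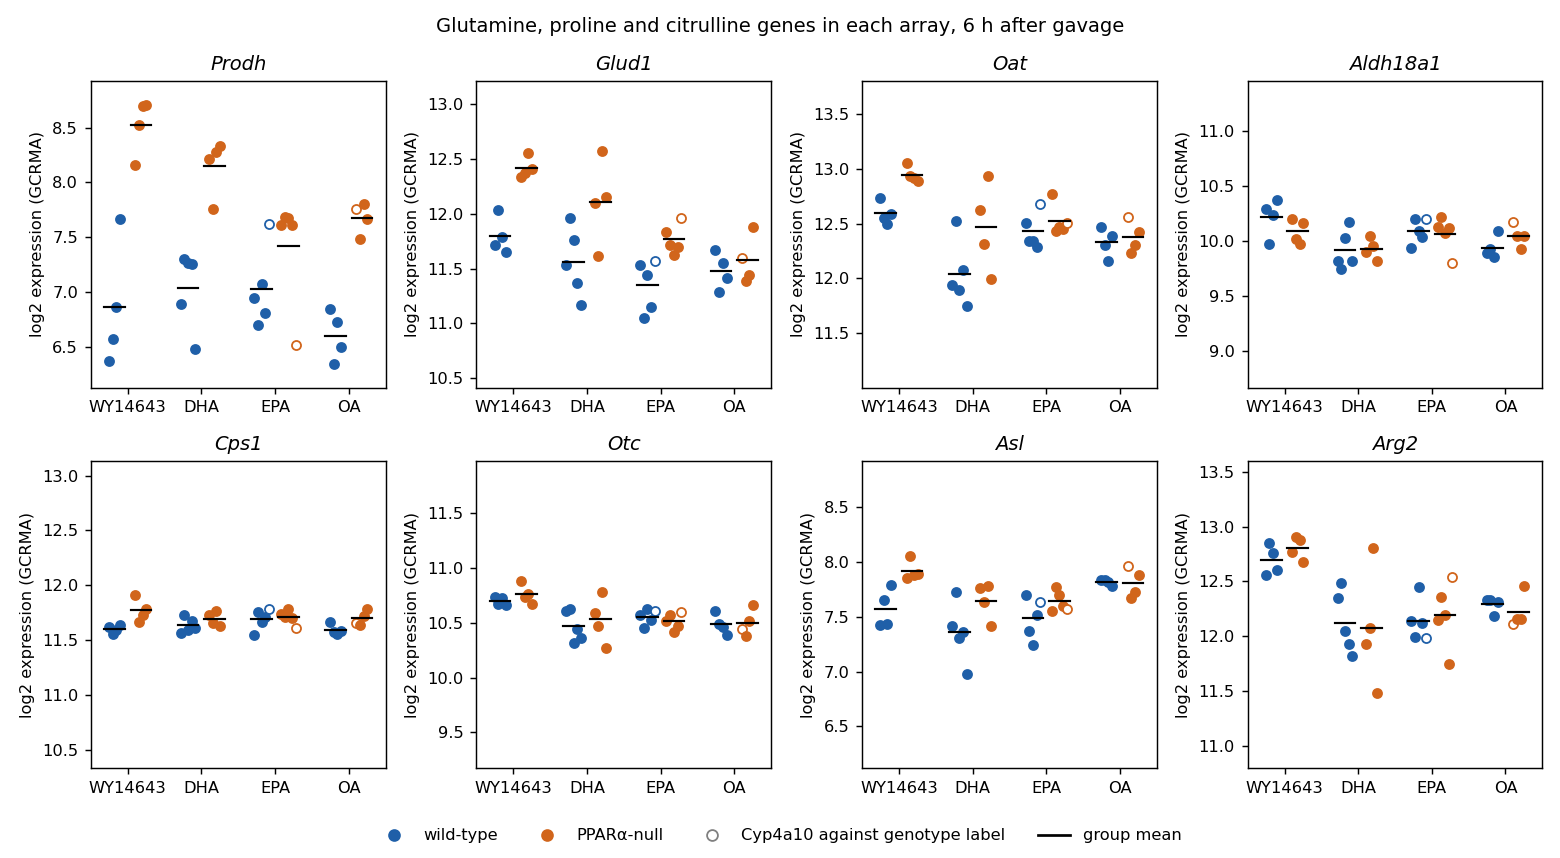
Log2 expression (GCRMA) of the 8 expressed members in each array, by agonist and genotype; points are mice, lines are group means, and open points are the 3 arrays whose Cyp4a10 goes against the genotype label. The Prodh points of the 2 genotypes are apart after WY14643, DHA and OA, and those of Otc and Arg2 lie higher after WY14643 than after most triacylglycerols. Each panel spans the same range of log2 units.

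The first question was how the genotypes differed after each agonist. The members called lower in the wild-type group after at least 1 agonist were Prodh, Glud1 and Oat. The enzymes of Prodh and Oat act on the way between proline, pyrroline-5-carboxylate and ornithine, while that of Glud1 releases ammonia from glutamate. Aldh18a1, whose enzyme makes pyrroline-5-carboxylate from glutamate, did not pass after any agonist. No member passed the test in the other direction. Oat was called after DHA alone, and that call passed in 6 of 12 other settings of the fit. Whether PPARα or the substrain accounts for these differences was not tested. The number of members called lower was 2 of 8 after WY14643 (Prodh and Glud1), 3 of 8 after DHA (Prodh, Glud1 and Oat), 1 of 8 after OA (Prodh) and 0 of 8 after EPA. Calls rest on limma with Benjamini-Hochberg adjusted p under 0.05 over 15384 expressed probesets. Over all 8626 expressed genes the shares called lower were 3.43% after WY14643, 3.71% after DHA and 0.162% after OA. After EPA limma called 0 genes in either direction, 0% of those tested, although 1044 genes and 1 member had an unadjusted p under 0.05.

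Prodh encodes proline dehydrogenase, which starts the breakdown of proline in the mitochondrion, and lies at chr16:18071726-18089283 (GRCm38.p6). After WY14643 its log2 expression was 6.37, 6.57, 6.86 and 7.66 in the 4 wild-type mice and 8.16, 8.52, 8.69 and 8.71 in the 4 PPARα-null mice. The groups did not overlap, and 3 of the wild-type mice lay well below the fourth. The difference was -1.66 ± 0.25 (SE), or 3.15-fold lower in wild-type mice (limma, adjusted p = 2.02e-05).

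After DHA, Prodh was at 6.48, 6.89, 7.25, 7.27 and 7.30 in wild-type and at 7.75, 8.21, 8.28 and 8.33 in PPARα-null mice. Again every wild-type mouse was below every PPARα-null mouse, and the difference was -1.11 ± 0.24 (SE), 2.15-fold (limma, adjusted p = 0.00516). After OA the wild-type values were 6.34, 6.49, 6.72 and 6.84 and the PPARα-null values 7.48, 7.66, 7.75 and 7.80. These groups were also apart, with a difference of -1.08 ± 0.25 (SE), 2.11-fold (limma, adjusted p = 0.0460). The OA call was lost when any 1 of its 8 arrays was left out, with differences from -1.16 to -0.99 and adjusted p up to 0.163.

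After EPA, Prodh overlapped between genotypes, at 6.70, 6.81, 6.94, 7.07 and 7.62 in wild-type and 6.51, 7.61, 7.61, 7.68 and 7.68 in PPARα-null mice. The highest wild-type value and the lowest PPARα-null value belong to the 2 EPA arrays whose Cyp4a10 goes against the label. With all arrays the difference was -0.39 ± 0.22 (SE; limma, adjusted p = 0.606; 95% interval -0.84 to 0.06). Without the 3 arrays it was -0.77 ± 0.20 (SE; limma, adjusted p = 0.0483), and after OA it was -1.05 ± 0.22 (SE; adjusted p = 0.00963). In that fit Prodh was the 1 member called lower after EPA, where 0.533% of genes were called lower, and the 1 member called lower after OA, where the share was 0.441%.

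Glud1 encodes glutamate dehydrogenase, which releases ammonia from glutamate in the mitochondrial matrix (chr14:34310727-34345033). After WY14643 its log2 levels were 11.65, 11.71, 11.78 and 12.04 in wild-type and 12.33, 12.38, 12.40 and 12.55 in PPARα-null mice, without overlap. The difference was -0.62 ± 0.16 (SE), 1.54-fold (limma, adjusted p = 0.0123), and leaving out PPARα-null replicate 3 raised the adjusted p on this probeset to 0.0525.

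After DHA, Glud1 was at 11.17, 11.37, 11.53, 11.76 and 11.96 in wild-type mice and at 11.61, 12.10, 12.15 and 12.57 in PPARα-null mice. These groups overlapped, and the difference was -0.55 ± 0.15 (SE), 1.47-fold (limma, adjusted p = 0.0242). This call was lost without any of 4 of the 9 arrays (wild-type DHA replicates 4 and 5 and PPARα-null DHA replicates 1 and 3), with differences over all 9 from -0.72 to -0.40 and adjusted p up to 0.191. After EPA every wild-type mouse (11.05 to 11.57) was below every PPARα-null mouse (11.63 to 11.97), and the difference of -0.42 ± 0.14 (SE) had a limma adjusted p of 0.424. After OA the ranges were 11.29 to 11.67 and 11.39 to 11.88, with a difference of -0.10 and a 95% interval of -0.42 to 0.23. The values without the 3 arrays were -0.43 (adjusted p = 0.192) after EPA and -0.09 (adjusted p = 0.885) after OA. The second Glud1 probeset gave differences of the same sign after all 4 agonists and passed the test after the same 2 (WY14643, -0.68; DHA, -0.59).

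Oat encodes ornithine aminotransferase, which links pyrroline-5-carboxylate with ornithine and so feeds citrulline formation in the gut (chr7:132557475-132576398). After WY14643 it was at 12.50, 12.55, 12.59 and 12.74 in wild-type and 12.89, 12.91, 12.94 and 13.05 in PPARα-null mice. The groups were apart, but the difference of -0.35 ± 0.14 (SE) did not pass the test (limma, adjusted p = 0.147). After DHA the values were 11.75, 11.89, 11.94, 12.08 and 12.53 in wild-type and 11.99, 12.31, 12.62 and 12.94 in PPARα-null mice. These groups overlapped, and the difference of -0.43 ± 0.13 (SE), 1.35-fold, passed narrowly (limma, adjusted p = 0.0499). It did not pass without any of 6 of the 9 DHA arrays (wild-type replicates 1, 3, 4 and 5 and PPARα-null replicates 1 and 3; -0.59 to -0.27 over all 9), and it passed in 6 of 12 other settings of the fit.

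Cps1 and Asl, enzymes of the urea cycle proper, did not pass the test after any single agonist. Cps1, which encodes carbamoyl phosphate synthetase and is the entry of ammonia into citrulline, was at 11.56 to 11.64 in wild-type and 11.66 to 11.92 in PPARα-null mice after WY14643. Those groups did not overlap, and the difference was -0.17 ± 0.06 (SE; limma, adjusted p = 0.0593). Asl, which encodes argininosuccinate lyase, was at 7.42 to 7.79 against 7.86 to 8.06 after WY14643, with a difference of -0.35 ± 0.12 (SE; limma, adjusted p = 0.0793). After EPA and OA the differences of Oat, Cps1 and Asl lay between -0.15 and 0.01 with all arrays and between -0.20 and 0.06 without the 3, none past the test.

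Counting groups without overlap on the brightest probesets, 5 of 8 members (Prodh, Glud1, Oat, Cps1 and Asl) had every wild-type mouse below every PPARα-null mouse after WY14643, as had 8.12% of expressed probesets. The same held for 1 member after DHA (3.44% of probesets), 1 after EPA (Glud1; 0.663%) and 1 after OA (2.54%), Prodh being the member after DHA and OA.

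Otc, Aldh18a1 and Arg2 did not pass the genotype test after any agonist. Otc encodes ornithine transcarbamylase, which makes citrulline, and its 4 differences lay between -0.06 and 0.04, the widest 95% interval being -0.23 to 0.11 after WY14643. The second Otc probeset gave -0.06 to 0.21, the highest after OA (limma, adjusted p = 0.378). Aldh18a1 encodes the enzyme that makes pyrroline-5-carboxylate from glutamate, and its differences lay between -0.11 and 0.13 on the brightest probeset. Of its 4 other probesets, 2 gave higher values after WY14643 without overlap of the groups, at 0.32 (limma, adjusted p = 0.143) and 0.28 (adjusted p = 0.121). Arg2 encodes the mitochondrial arginase, with differences from -0.11 to 0.07 and intervals that reached -0.47 and 0.43. On the brightest probesets, the differences of these 3 genes after EPA and OA lay between -0.07 and 0.06 without the 3 arrays.

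**Figure D2:**
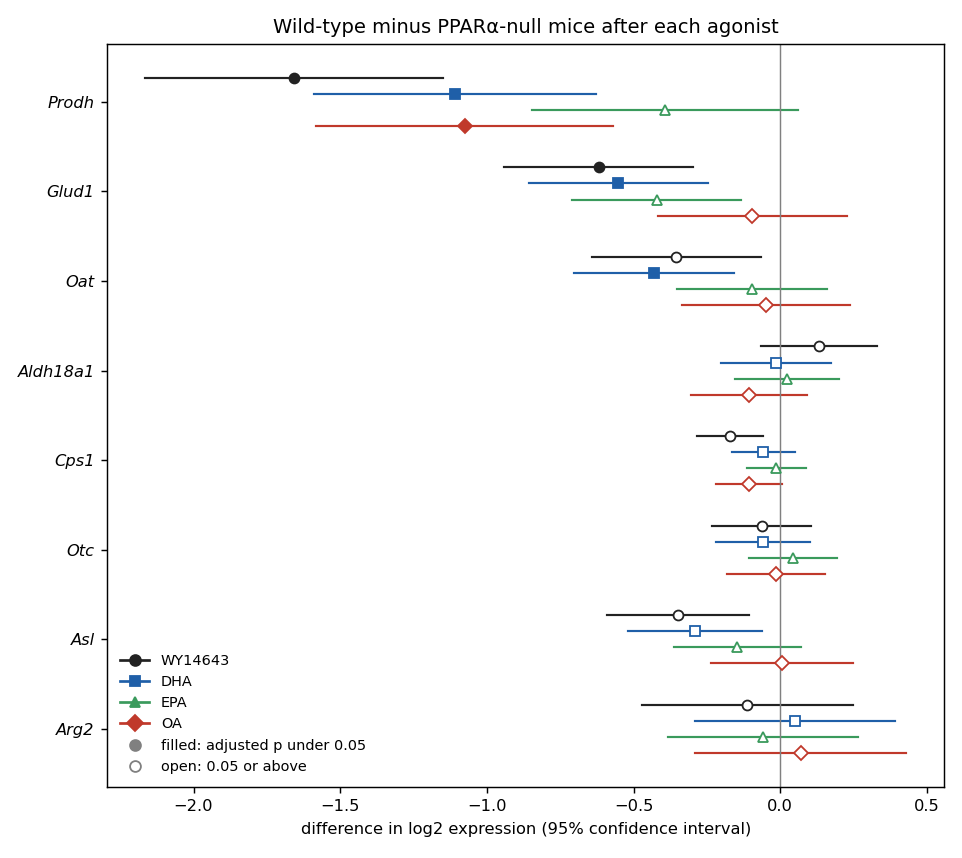
Wild-type minus PPARα-null difference in log2 expression of the 8 expressed members after each agonist, as points with 95% confidence intervals; filled points had a limma adjusted p under 0.05. The 6 filled points are those of Prodh after WY14643, DHA and OA, Glud1 after WY14643 and DHA, and Oat after DHA, and all lie below 0.

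Averaged over the 4 agonists, 5 of 8 members were lower in wild-type mice and none was higher, where 14.0% of all genes were called lower. The differences were -1.06 ± 0.12 (SE) for Prodh (limma, adjusted p = 1.72e-07), -0.42 ± 0.08 for Glud1, -0.23 ± 0.07 for Oat, -0.19 ± 0.06 for Asl and -0.09 ± 0.03 for Cps1. The last amounts to 1.06-fold. The median over the 8 members was -0.14, beside -0.01 over all expressed probesets. All 5 calls held when any 1 of the 35 arrays was left out, and without the 3 arrays.

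Whether a genotype difference depended on the agonist was tested directly, as the difference of differences between each pair of agonists. No member passed in any of the 6 tests, in which limma called 0.580% of genes (WY14643 against DHA), 1.30% (WY14643 against EPA), 1.30% (WY14643 against OA) and 0% in each of the 3 tests among triacylglycerols. At an unadjusted p under 0.05, 1, 2 and 3 members passed in the tests with WY14643 and 1, 1 and 2 in those without. Of all 8626 genes, 974, 781 and 1015 did so in the former and 695, 720 and 682 in the latter. The strongest was Prodh, whose genotype difference after WY14643 minus that after EPA was -1.27 ± 0.33 (SE) (limma, adjusted p = 0.0536). Without the 3 arrays whose Cyp4a10 goes against the label this became -0.89 ± 0.29 (SE; adjusted p = 0.235), and no member passed in the tests those arrays enter.

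The second question was how the agonists differed within a genotype. After WY14643, Oat, Otc and Arg2, the enzymes around ornithine, and Glud1 were higher than after at least 1 triacylglycerol in both genotypes. These are 4 of 8 members, beside 19.4% of all genes, and no member was called lower. Within a genotype, 5 of 8 members were higher than after at least 1 triacylglycerol, where the share of all genes was 28.0% in wild-type and 26.4% in PPARα-null mice. In wild-type mice the members called higher after WY14643 were 4 of 8 against DHA (Oat, Aldh18a1, Otc and Arg2; 19.7% of all genes were called higher), 3 against EPA (Glud1, Otc and Arg2; 22.1%) and 2 against OA (Glud1 and Aldh18a1; 16.2%). In PPARα-null mice they were 2 against DHA (Oat and Arg2; 10.9%), 5 against EPA (Prodh, Glud1, Oat, Otc and Arg2; 20.8%) and the same 5 against OA (18.2%). The 5 were again called against EPA (19.0% of all genes) and OA (17.6%) in PPARα-null mice without the 3 arrays. Against EPA in wild-type mice Otc was then lost and Aldh18a1 gained (Glud1, Aldh18a1 and Arg2; 21.2%). The 3 comparisons within a genotype share their WY14643 mice. On the main probesets, all 24 differences were above 0 in PPARα-null mice and 19 of 24 in wild-type mice.

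Arg2 showed the pattern in both genotypes (chr12:79130788-79156301). In wild-type mice it was at 12.56, 12.60, 12.76 and 12.85 after WY14643, at 11.82 to 12.48 after DHA, 11.99 to 12.45 after EPA and 12.19 to 12.33 after OA. Every WY14643 mouse was above every mouse of the other 3 groups. The differences were 0.57 ± 0.17 (SE) from DHA (limma, adjusted p = 0.00932), 0.56 ± 0.17 from EPA (adjusted p = 0.00943) and 0.40 ± 0.18 from OA (adjusted p = 0.0875). The difference from EPA was 0.52 (adjusted p = 0.0218) without the 3 arrays.

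In PPARα-null mice Arg2 was at 12.67, 12.77, 12.88 and 12.91 after WY14643, at 11.49, 11.93, 12.07 and 12.80 after DHA, at 11.75 to 12.54 after EPA and at 12.11 to 12.45 after OA. Only DHA replicate 3 reached the WY14643 values. The differences were 0.73 ± 0.18 (SE; limma, adjusted p = 0.00736), 0.61 ± 0.17 and 0.59 ± 0.18, each past the test, and the first was 0.98 without DHA replicate 3 and 0.54 (adjusted p = 0.0627) without DHA replicate 4. Those from EPA and OA were 0.69 (adjusted p = 0.00447) and 0.55 (adjusted p = 0.0345) without the 3 arrays. The second Arg2 probeset gave 6 positive differences of 0.36 to 0.61.

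Otc (chrX:10252230-10321024) differed by less between WY14643 and the triacylglycerols. In wild-type mice it was at 10.67, 10.67, 10.73 and 10.74 after WY14643 and did not exceed 10.63 in any wild-type mouse given a triacylglycerol. The difference was 0.23 ± 0.08 (SE), 1.17-fold, from DHA (limma, adjusted p = 0.0243), 0.14 ± 0.08 from EPA and 0.21 ± 0.08 from OA (adjusted p = 0.0524). The call against EPA came from the second Otc probeset, at 0.25 (adjusted p = 0.0282), and was lost without the 3 arrays (0.24, adjusted p = 0.0537). In PPARα-null mice the 3 differences were 0.23, 0.25 and 0.26, and those from EPA and OA passed the test. On the brightest probeset, the call against DHA in wild-type mice was lost without any of 4 arrays (WY14643 replicates 1 and 3, DHA replicates 3 and 5; adjusted p up to 0.0752), and those in PPARα-null mice without WY14643 replicate 1 (adjusted p up to 0.0697). The call against OA in PPARα-null mice was also lost without OA replicate 2 (adjusted p = 0.0722) and without the 3 arrays whose Cyp4a10 goes against the label (0.24, adjusted p = 0.0528), where the second probeset still passed (0.40, adjusted p = 0.00637).

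Oat in PPARα-null mice was 0.48 ± 0.14 (SE) higher after WY14643 than after DHA, 0.42 ± 0.13 higher than after EPA and 0.57 ± 0.14 higher than after OA (limma, adjusted p = 0.0212, 0.0167 and 0.00378). The 4 WY14643 mice, at 12.89 to 13.05, lay above all PPARα-null mice given EPA (12.43 to 12.77) or OA (12.23 to 12.56), while DHA replicate 3 at 12.94 overlapped them. The call against DHA was lost without PPARα-null WY14643 replicate 1 or DHA replicate 2 or 4 (adjusted p up to 0.149). Those against EPA and OA held without the 3 arrays, at 0.42 (adjusted p = 0.0259) and 0.63 (adjusted p = 0.00356). In wild-type mice Oat was 0.56 ± 0.13 (SE) higher than after DHA (limma, adjusted p = 0.00197), and the differences of 0.16 from EPA (0.22 without the 3 arrays) and 0.26 from OA did not pass.

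Glud1 in PPARα-null mice was higher after WY14643 by 0.84 ± 0.16 (SE), 1.79-fold, than after OA (limma, adjusted p = 0.000358) and by 0.65 ± 0.15 than after EPA (adjusted p = 0.00172). All 4 mice were above the highest EPA and OA values, 11.97 and 11.88. Leaving out the 3 arrays gave 0.85 from OA (adjusted p = 0.000905) and 0.70 from EPA (adjusted p = 0.00206). In wild-type mice the difference from EPA was 0.45 ± 0.15 (SE; limma, adjusted p = 0.0182), which was lost on this probeset without WY14643 replicate 2 or EPA replicate 2 or 4 (adjusted p up to 0.0809) and was 0.50 (adjusted p = 0.0141) without the 3 arrays. The call against OA came from the second probeset (0.45) while the first gave 0.32 (adjusted p = 0.136).

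Prodh differed between WY14643 and triacylglycerols only among PPARα-null mice in these tests, by 1.10 ± 0.24 (SE), 2.15-fold, from EPA (limma, adjusted p = 0.000879) and 0.85 ± 0.25 from OA (adjusted p = 0.0126). Without the 3 arrays these were 0.87 (adjusted p = 0.00230) and 0.87 (adjusted p = 0.00485). In wild-type mice the differences were -0.17, -0.16 and 0.27, with 95% intervals that ran from -0.65 to 0.77. That the genotypes differed in this contrast between agonists did not pass the test of the difference, as given above.

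Aldh18a1 was higher after WY14643 in wild-type mice, by 0.31 ± 0.09 (SE) against DHA (limma, adjusted p = 0.0103) and by 0.28 ± 0.10 against OA (adjusted p = 0.0282). The OA call was lost without any of 6 of its 8 arrays, all but wild-type WY14643 replicate 2 and wild-type OA replicate 4. On the 4 other Aldh18a1 probesets the differences from DHA in wild-type mice were 0.21 to 0.48. One of these also passed against EPA in wild-type mice when the 3 arrays were left out (0.29, adjusted p = 0.0314). In PPARα-null mice the differences on the brightest probeset were 0.02 to 0.16, and no Aldh18a1 probeset passed. On the 4 others the PPARα-null group means were 9.13, 8.54, 7.42 and 5.37 after WY14643, and 9.00, 8.26, 7.31 and 5.10 after DHA. Cps1 differences between WY14643 and triacylglycerols lay between -0.09 and 0.08 in both genotypes, with all 95% intervals inside -0.20 to 0.19.

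**Figure D3:**
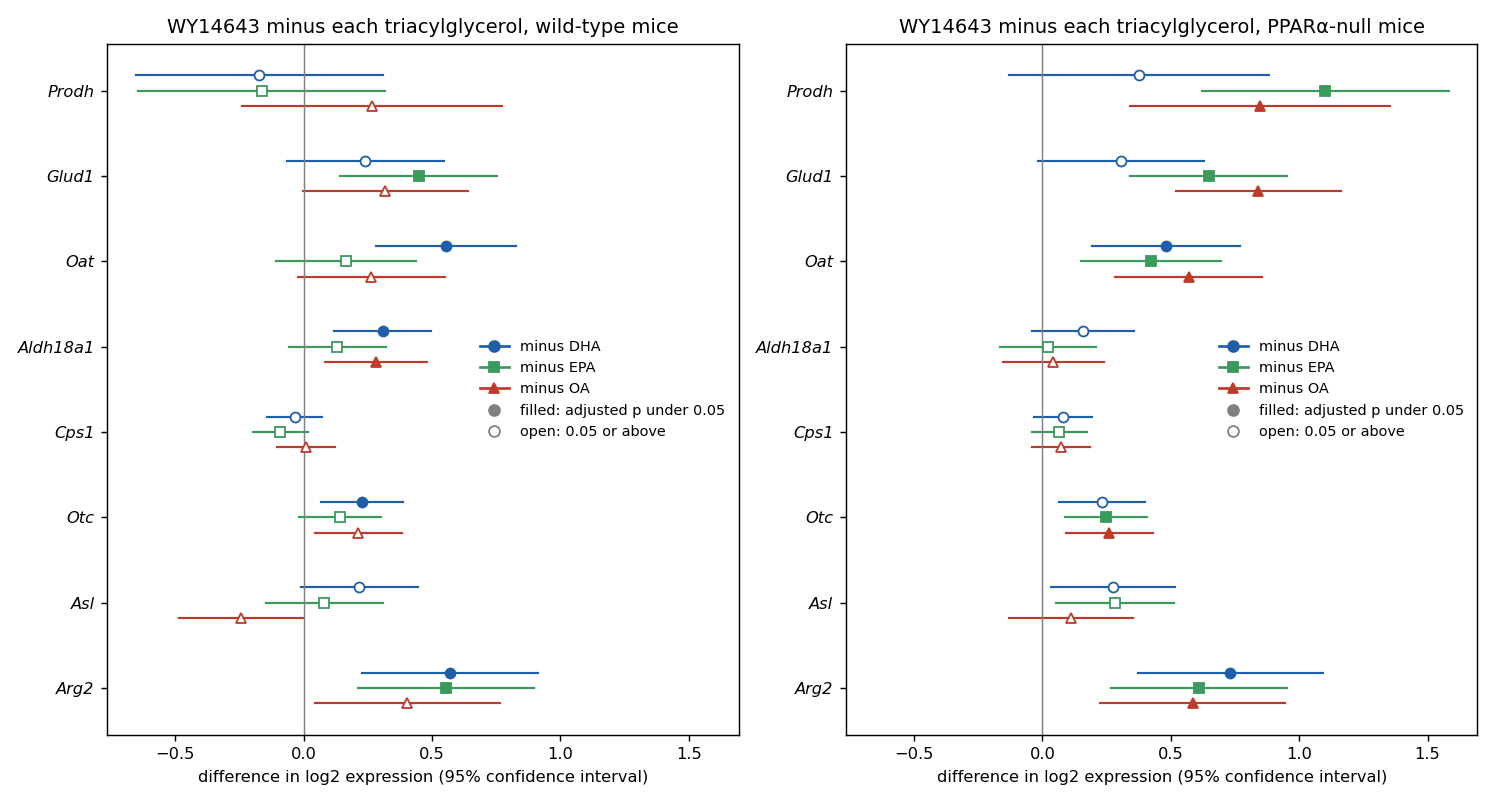
WY14643 minus each triacylglycerol in log2 expression, with 95% confidence intervals, in wild-type and PPARα-null mice; filled points had a limma adjusted p under 0.05. All points of Arg2, Otc and Oat lie to the right of 0 in both panels, and all 3 of Prodh do so in the PPARα-null panel.

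DHA, EPA and OA were given as triacylglycerols in the same volume for the same time, and differ in the length of the fatty acid chain and in its number of double bonds. Over 3 pairs, 2 genotypes and 8 members, 1 of 48 differences on the main probesets passed the test. Asl in wild-type mice was at 6.98, 7.30, 7.36, 7.41 and 7.73 after DHA and at 7.78, 7.82, 7.83 and 7.84 after OA, without overlap. It was 0.46 lower after DHA (-0.46 ± 0.11 SE, 1.38-fold; limma, adjusted p = 0.0145), where 3.15% of all genes were called lower, and the adjusted p was 0.0695 without DHA replicate 5. In PPARα-null mice the same difference was -0.16, with a 95% interval of -0.40 to 0.08.

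No member passed in the other 5 pairs, in which limma called 0.719% of genes (DHA against EPA, wild-type), 8.01% (EPA against OA, wild-type), 0.719% (DHA against EPA, PPARα-null), 1.31% (DHA against OA, PPARα-null) and 3.15% (EPA against OA, PPARα-null). At an unadjusted p under 0.05 there were 2, 1, 3, 1 and 0 members in these pairs, beside 1458, 2027, 1055, 1445 and 1642 of all 8626 genes. The largest were 0.72 for Prodh between DHA and EPA in PPARα-null mice (95% interval 0.24 to 1.21) and 0.54 for Glud1 between DHA and OA in PPARα-null mice (0.21 to 0.86). For Oat in wild-type mice DHA minus EPA was -0.39, with an interval of -0.65 to -0.14 and a limma adjusted p of 0.150. Without the 3 arrays the Prodh difference was 0.50, that of Glud1 was 0.54 and that of Oat was -0.33, and no member passed in these 5 pairs. These intervals do not show that the triacylglycerols acted alike.

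The other genes of these pathways were taken from lists of 57 genes, of which 36 were expressed. After WY14643, wild-type mice had more Got2, the mitochondrial aspartate aminotransferase (0.47 ± 0.09 SE; limma, adjusted p = 0.000561), and more Slc7a7, a basolateral carrier of cationic amino acids (0.41 ± 0.09), than PPARα-null mice. Glul, the glutamine synthetase, was called higher on its second probeset (0.94 ± 0.26 SE; adjusted p = 0.0269), while its brightest gave 0.07 (adjusted p = 0.856). Averaged over the agonists the same probesets gave 0.54 (adjusted p = 0.00280) and -0.02. They had less Nags, which makes the obligate activator of Cps1 (-0.43 ± 0.13), and less Slc25a12, a mitochondrial aspartate-glutamate carrier (-0.39 ± 0.08). Nags was also lower after DHA (-0.39 ± 0.12). In total 1 of 8 genes of arginine, ornithine and polyamine metabolism was lower and none higher after WY14643, and 2 were lower and 1 higher after DHA. Over all genes 3.43% were called lower and 4.13% higher after WY14643, and 3.71% and 4.49% after DHA. The gene called higher after DHA was Odc1, on other probesets than its brightest (0.58 and 0.42). The brightest gave 0.39 (limma, adjusted p = 0.0526).

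Of 12 plasma membrane carriers, 3 were lower in wild-type mice after DHA: Slc7a8 (-0.99 ± 0.22 SE), Slc6a19, the apical carrier of neutral amino acids such as glutamine (-0.48 ± 0.12), and Slc7a9 (-0.26 ± 0.07). Over all genes 3.71% were called lower after DHA. Averaged over the agonists, 7 of the 36 genes were higher and 10 lower in wild-type mice on their brightest probeset. Among the 8 genes of arginine, ornithine and polyamine metabolism, 4 were higher (Odc1, Agmat, Ddah1 and Srm) and 2 lower (Nags and Sat1). Aldh4a1, which completes proline breakdown after Prodh by turning pyrroline-5-carboxylate into glutamate, was lower in wild-type mice (-0.50 ± 0.10 SE; limma, adjusted p = 0.000917), as was Sirt3, a mitochondrial deacetylase (-0.37 ± 0.07). Of the 3 expressed genes of the proline list, 1 was lower in this average and 1, Pycrl, was higher by 0.14. Over all genes, called on any probeset, 14.0% were lower and 11.6% higher in the average.

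Between WY14643 and triacylglycerols, 6 of 35 genes passed in all 6 comparisons on their brightest probeset, 3 of them higher and 3 lower after WY14643, beside 3.98% and 3.91% of all genes. Prodh2, a proline dehydrogenase that acts on hydroxyproline, was left out of this count, since its mean was above the level limit only in PPARα-null mice after WY14643 (5.20; 4.85 in wild-type mice, and 3.73 to 4.23 in the triacylglycerol groups). The higher genes were Slc25a15, which carries ornithine and citrulline across the inner mitochondrial membrane (0.34 to 0.63), Slc6a20a, an apical proline carrier (0.82 to 1.07), and Sirt3 (0.52 to 1.00). The lower genes were Srm, the spermidine synthase (-1.50 to -1.23), Ddah1, which hydrolyses methylated arginines to citrulline (-2.58 to -1.78), and Asns, which uses glutamine to make asparagine (-1.39 to -0.74). Odc1, which turns ornithine into putrescine, was lower in 5 of 6 comparisons (-0.72 to -0.40 in those). These comparisons share their WY14643 mice within a genotype, and the 6 genes were also called against EPA in both genotypes and OA in PPARα-null mice without the 3 arrays.

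**Figure D4:**
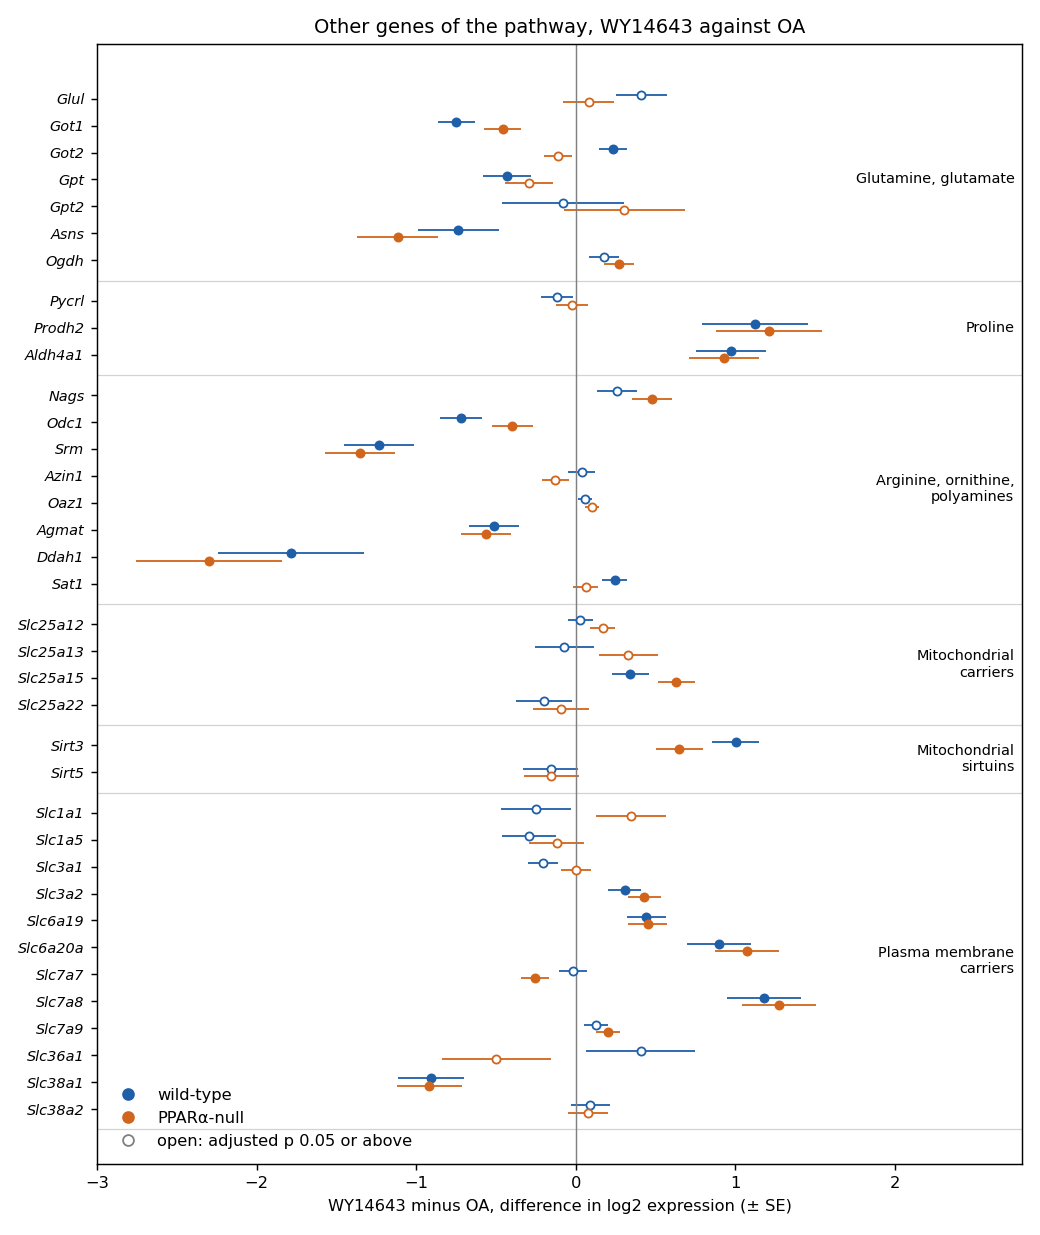
WY14643 minus OA in log2 expression (points with SE) for the 36 other expressed genes of the pathway lists, in wild-type and PPARα-null mice; filled points had a limma adjusted p under 0.05. Prodh2 was above the level limit in 1 group alone. Aldh4a1, Slc25a15, Sirt3, Slc6a20a and Slc7a8 lie above 0 and Asns, Srm and Ddah1 below 0 in both genotypes.

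Markers of other cells and of gut regions moved with some of these comparisons. Of 8 expressed villus enterocyte markers, 2 were higher (Fabp2 and Mttp) in wild-type mice after WY14643, and 1 was higher and 2 lower (Lct and Anpep) after DHA. Over all genes 4.13% were called higher after WY14643, and 4.49% higher and 3.71% lower after DHA. After WY14643, 4, 2 and 1 of the villus markers were higher than after DHA, EPA and OA in wild-type mice and 1, 2 and 2 in PPARα-null mice. The shares of all genes called higher were 19.7%, 22.1% and 16.2% in wild-type mice and 10.9%, 20.8% and 18.2% in PPARα-null mice. In each genotype 1 or 2 were lower than after OA: Mttp in wild-type, Mttp and Fabp2 in PPARα-null mice. Lct, the brush border lactase, was higher after WY14643 in all 6 comparisons (0.33 to 0.57). The summed log2 level of the villus list was 16.31 to 16.63 over all 35 arrays. In this sum the symbol Sis, meant for sucrase-isomaltase, was matched through a synonym to Pdgfb, which was not expressed. Sucrase-isomaltase itself is therefore not part of the list as used.

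Of 6 expressed crypt and proliferation markers, 5, 4 and 4 were lower after WY14643 than after DHA, EPA and OA in wild-type mice. In PPARα-null mice 2, 3 and 3 were lower. The shares of all genes called lower were 20.8%, 23% and 17.7% in wild-type mice and 9.03%, 16.9% and 13.2% in PPARα-null mice. Of these markers 1, Olfm4, was higher after WY14643 than after DHA in wild-type mice. All 7 pancreatic acinar markers were lower after WY14643 than after OA in PPARα-null mice (median -4.32; summed log2 level 11.06 to 13.67 against 15.66 to 16.67), and none passed in the other 5. Of 8 hepatocyte markers 2 were expressed and albumin was not. Pck1, which opens gluconeogenesis in liver and is also expressed in intestine, was higher after WY14643 in all 6 comparisons (2.84 to 5.20).

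Among 7 proximal intestine markers, Pdx1 and Cybrd1 showed lower levels in the wild-type group after WY14643 (-0.72 and -1.83 against PPARα-null mice), where the summed log2 levels did not overlap (13.10 to 13.21 against 13.33 to 13.48). Over all genes 3.43% were called lower there. In wild-type mice the summed levels were 12.40 to 13.00 after DHA, 12.67 to 13.12 after EPA and 12.69 to 12.82 after OA. In PPARα-null mice they were 12.88 to 13.38, 12.94 to 13.25 and 12.85 to 13.08 in that order. The ranges after WY14643 lay above these, with overlap only for EPA in wild-type and DHA in PPARα-null mice. Of 5 expressed distal markers, Slc10a2, the ileal bile acid carrier, was lower after WY14643 in 5 of 6 comparisons (-1.62 to -0.97 in those) and Fabp6 in 4 (-0.59 to -0.49). Over all genes 9.03% to 23% were called lower in the 6 comparisons, and Guca2a, Nr1h4 and Pyy are not described singly. Summed over the distal list, log2 levels after WY14643 were 13.89 to 14.15 in wild-type and 13.81 to 14.25 in PPARα-null mice. They were 13.81 to 14.50, 14.35 to 14.54 and 14.21 to 14.52 after DHA, EPA and OA in wild-type mice. In PPARα-null mice they were 14.20 to 14.40, 14.18 to 14.46 and 14.08 to 14.33. Of 7 enteroendocrine markers, 4 were at a lower level in the wild-type mice after WY14643 (3.43% of all genes) and none after DHA (3.71%). After WY14643, 3 of them were higher and 1 lower than after OA in PPARα-null mice, with 0 to 2 called in the other 5 comparisons with a triacylglycerol. The part of these cells and regions in the members' differences was not tested.

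Over the 35 arrays the member pairs with the highest Pearson correlation were Otc with Arg2 (0.83, and 0.74 after group means were removed) and Oat with Otc (0.77 and 0.69), while Prodh and Glud1 had 0.70 and 0.29. The genes whose pattern was most like a member's over the same arrays were Mb21d2 for Prodh (0.88), Cobl for Glud1 (0.91), Clic5 for Oat (0.93), Ugt2b36 for Otc (0.87), Cdip1 for Arg2 (0.89) and Slc1a1 for Asl (0.82). All such values come from the same arrays and share their differences in RNA and hybridisation, so they are descriptions with no test. For Aldh18a1 and Cps1 the highest values were 0.66 (Cblc) and 0.73 (Tmem256).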

How the data were processed

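RNA of 35 mice was hybridised to Affymetrix whole-genome mouse arrays. The deposited values are log2 expression per probeset; per the labels the authors used GCRMA (version not given in the sources used here), which adjusts background by probe sequence and summarises probes after quantile normalization. Array medians were 2.83 to 2.88, and the number of arrays limits the precision. Of 45101 probesets, 64 controls were left out; 15384 had a group mean above 32 (linear). Symbols came from the platform annotation, where 34945 probesets had 1 symbol, 932 several and 9160 none; a second Ass1 probeset shared with Gm5424 was not counted. A fit of 8 group means (limma 3.58.1, R 4.3.3, intensity trend) was tested on simulated data before use. A gene was called if any of its probesets had a Benjamini-Hochberg adjusted p under 0.05 over all 15384; values in the text are those of its brightest probeset. Named genes were the members, other pathway genes passing a test and the genes most like each member. Nothing states that mice came from separate litters or batches, so p-values measure the spread between these mice. Same-numbered replicates were not paired (correlations of 17 pairs -0.44 to 0.55, 6 over 0.1). Members and lists were chosen with earlier results of these data known. Promoter windows are RefSeq sequence; 6 of 9 members matched, and Cps1, Asl and Arg2 are not shown. Alternatives are in the closing section.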

Additional observations from a re-analysis of the deposited data

Results flagged for a closer look

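In 4 of 64 combinations of member and group, 1 array lay far from the others by Dixon's criterion, which chance meets in about 1 of 20 groups. Prodh in PPARα-null EPA replicate 5 was at 6.51, with the other 4 mice at 7.61 to 7.68; this is an array whose Cyp4a10 goes against its genotype label. Oat in PPARα-null EPA replicate 1 was at 12.77 (others 12.43 to 12.51). Asl in PPARα-null WY14643 replicate 2 was at 8.06 (others 7.86 to 7.89). Arg2 in PPARα-null OA replicate 4 was at 12.45 (others 12.11 to 12.16).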

How the results depend on the processing

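Each count of members was recomputed under 13 other settings, without the 3 arrays whose Cyp4a10 goes against their label (chosen after seeing the data), and without each array in turn. None of the 31 called differences changed sign. Without the 3 arrays, 14 of the 128 member differences that use those groups did, none of them called and none beyond 0.13 in size, among them Oat after OA (-0.05 to 0.01) and Arg2 after EPA (-0.06 to 0.06). After WY14643 the count of 2 members rose to 6 with array weights and to 4 at an unadjusted p under 0.01, and without 1 array it was 2 to 3. After DHA the count of 3 fell to 1 when only the groups compared were fitted, and without 1 array it was 1 to 4. After EPA the count of 0 became 1 at an unadjusted p under 0.01 (Glud1) and 1 without the 3 arrays (Prodh). After OA the count of 1 became 0 without the filter on low levels, 0 without the intensity trend, and 0 without any 1 array. Interactions gave 1 member, Prodh, in place of 0 on log2(linear value + 32), with array weights, with 1 probeset per gene, with the replicate block and at an unadjusted p under 0.01, and 0 to 1 without 1 array. With the replicate block, which the pairing check did not call for, the counts were 2, 2, 0 and 1 after WY14643, DHA, EPA and OA, so that Oat was lost after DHA. The averaged comparison uses all groups and was not run on the groups compared alone. Of 31 called differences, 21 passed under every setting that kept all arrays or left out the 3, 19 passed without any 1 array, and 18 passed in both. The causes were not tested.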
